A study of Mus musculus with 6 samples.

Results

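Caveolae are small pits of the plasma membrane, and mechanosensitive channels are ion channels that open when the membrane is stretched or pushed. The 10 genes described here encode both kinds of protein: the caveolins Cav1 and Cav2, the cavins Cavin1, Cavin2 and Cavin3, the neck protein Ehd2, and the channels Piezo1, Piezo2, Trpv4 and Pkd2. They were taken by symbol from a table of 54100 genes, and each symbol matched a row. RNA was sequenced from Pdgfra+ mesenchymal progenitors (fibro-adipogenic progenitors, FAPs) sorted from plantaris muscle of C57BL/6 mice, with 1000 cells to a tube. Sham and overloaded muscle each gave 3 libraries, and the groups differed by no other labelled factor. The age and sex of the mice, the way the load was applied and its duration were not given in the sources used here. Nothing in the labels says that the libraries came from separate animals, so p-values measure only the spread among the 6 libraries, part of which may be technical.

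In a caveola, caveolins insert into the inner face of the membrane and cavins form a coat around them, with Cavin1 required for the pit to form. EHD2 sits at the neck and holds the pit at the surface. Stretch can flatten caveolae, which releases cavins and gives up spare membrane, and fibroblasts, endothelial cells and adipocytes are rich in them. PIEZO1 and PIEZO2 open directly to membrane tension and let calcium in. TRPV4 opens to swelling and other stimuli, and polycystin-2, the product of Pkd2, is a cation channel of the primary cilium and the endoplasmic reticulum.

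Total counts were 500402 to 754456 in sham and 850857 to 1124210 in overloaded libraries, so that 1 count was worth 0.962 to 2.07 CPM (library-scaled counts, with the TMM scaling factors of edgeR). A gene was tested if it passed a minimum count of 10, which 7207 genes did, and it was called at an adjusted p under 0.05 by edgeR's quasi-likelihood test with Benjamini-Hochberg adjustment. All 10 FAP markers on a list that includes Pdgfra, Dcn and Pi16 were detected, and together they summed to 58184 to 75580 CPM in the sham and 72912 to 85058 CPM in overloaded libraries. The collagens Col1a1 and Col3a1 held up the overloaded sum. Without them the list summed to 37554 to 51201 CPM in the sham and 18316 to 26288 CPM in overloaded libraries, with no overlap. Most of that smaller sum was Dcn (39520 unscaled counts over the sham and 22167 over the overloaded libraries) and Gsn (38411 and 25286). The other markers had 1672 and 1619 (Pdgfra), 2202 and 2266 (Lum), 1148 and 1133 (Cd34), and 5153 and 8002 (Ly6a). Pi16 had 311 and 139, and Dpp4 152 and 49. The lower sum is thus mainly that of Dcn and Gsn. Reads assigned to olfactory and vomeronasal receptors, genes with no known expression in FAPs, made up 1445, 1819 and 781 CPM of the total in sham libraries 1 to 3 and 308, 1092 and 232 CPM in overloaded libraries 1 to 3. With bulk samples, fewer cells of a type and less RNA per cell cannot be told apart.

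Cav1 and Cav2 lie in tandem on chromosome 6 of GRCm38 and both read from the plus strand. Cav2 spans bases 17281185 to 17289115 and Cav1 bases 17306335 to 17341452, with 17219 bases and 0 annotated genes between them. Their promoter windows (250 bases before to 50 after the start of the gene, RefSeq, GRCm38.p6) are shown because each gene of the pair has its own start. A further reason was that Cav1, but not Cav2, was called in the comparison that follows. Cav2 had few counts there, and a difference in response between the pair was not shown. The windows are chr6:17306085-17306384 for Cav1 and chr6:17280935-17281234 for Cav2, plus strand. Capitals mark matches on either strand to SP1 (GGGCGG) or AP-1 (TGANTCA).
Cav1: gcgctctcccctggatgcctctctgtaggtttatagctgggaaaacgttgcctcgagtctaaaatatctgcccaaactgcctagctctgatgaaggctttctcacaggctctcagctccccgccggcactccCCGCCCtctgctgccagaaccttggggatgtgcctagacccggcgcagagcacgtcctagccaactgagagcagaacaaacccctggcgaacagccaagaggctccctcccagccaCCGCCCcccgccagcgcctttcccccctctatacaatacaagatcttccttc
Cav2: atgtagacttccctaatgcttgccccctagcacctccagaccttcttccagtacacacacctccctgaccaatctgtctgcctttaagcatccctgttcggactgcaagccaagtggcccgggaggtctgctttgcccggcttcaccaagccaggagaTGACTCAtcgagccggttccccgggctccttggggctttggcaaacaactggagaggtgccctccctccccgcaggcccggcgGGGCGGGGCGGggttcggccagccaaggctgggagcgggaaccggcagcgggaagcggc
The Cav1 window held 2 SP1 matches, beginning 118 and 2 bases before the start, both on the minus strand. The Cav2 window held 2 SP1 matches that share a base, beginning 9 and 4 bases before the start, and 1 AP-1 match beginning 92 bases before it. Among 32851 promoter windows of the same length, 35.7% held an SP1 match and 7.81% an AP-1 match. A TEAD match (GGAATG), present in 14.7% of all windows, was in neither of these, and among the 8 members with a window it was found for Cavin1 and Pkd2. A second annotated Cav1 start, at chr6:17307390-17307689, held 0 matches to the 3 motifs. Cavin3 and Piezo2 have no window here. GC content was 59.3% in the first Cav1 window and 64.3% in the Cav2 window, against a median of 52.7% over all windows. Counts taken near the 3′ end of transcripts do not tell which start was used.

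Of the 10 genes, 8 had enough counts to test. Cav1 and Piezo2 rose with overload, 0 fell, and 6 did not pass the test: Cav2, Cavin1, Cavin2, Cavin3, Ehd2 and Pkd2. Piezo1 and Trpv4 had too few counts. Called genes made up 29.3% of all those tested, 15% higher and 14.3% lower, so 2 called of 8 is near the background and is not a result about the group as a whole. Sham and overloaded libraries were fully apart for 4 of the 8 tested members, Cav1 and Piezo2 higher and Cavin1 and Pkd2 lower, where 41.5% of all tested genes showed no overlap (21.2% higher and 20.3% lower). Piezo2 passed the count filter through its overloaded libraries alone, so its inclusion among the tested genes is tied to its being high there.

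**Figure D1:**
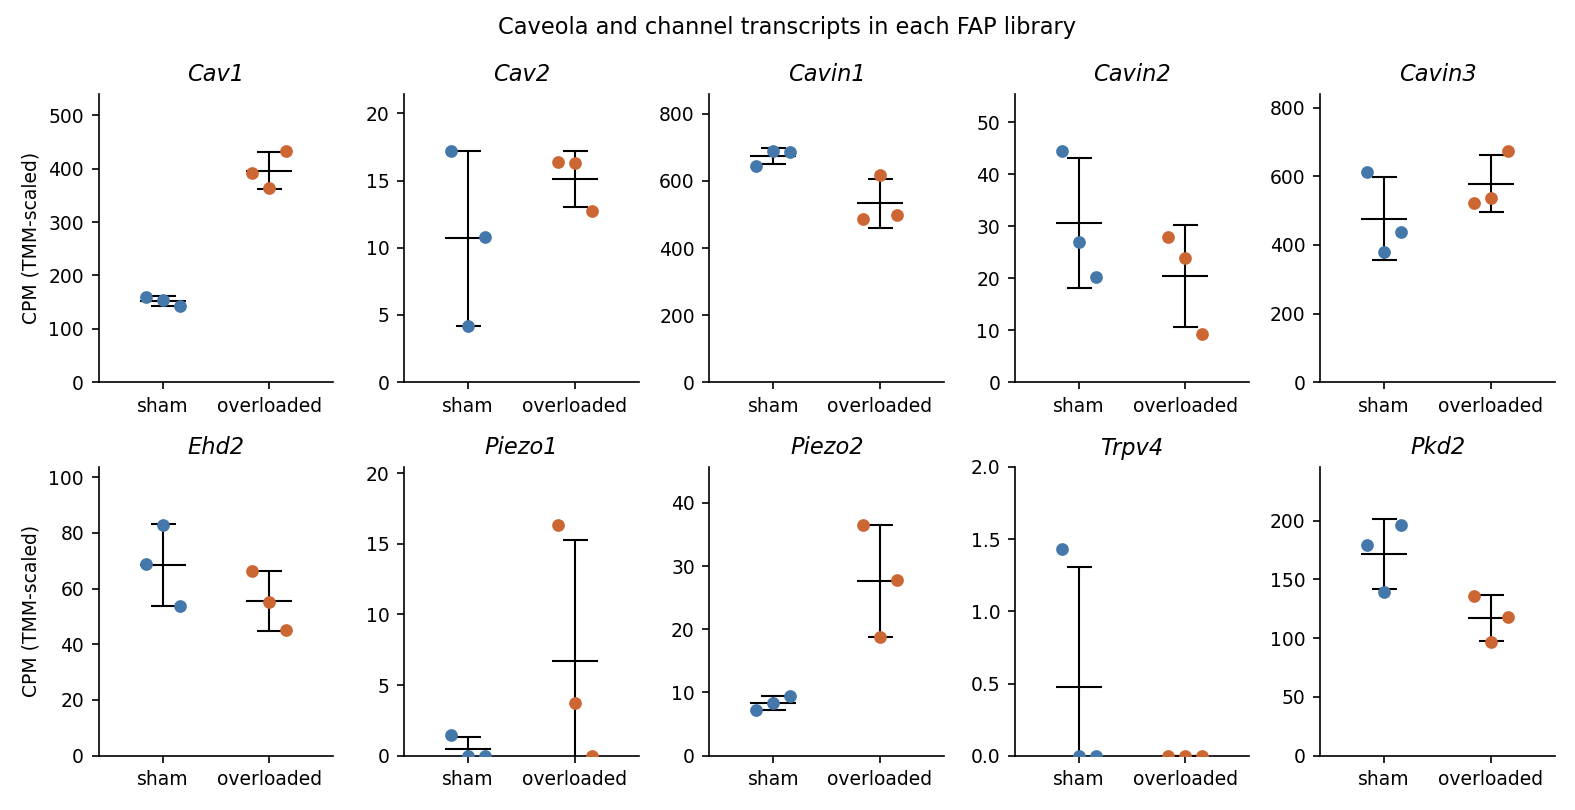
TMM-scaled CPM (y axis, from 0, with its own range for each gene) of the 10 caveola and channel genes in 3 sham and 3 overloaded libraries. Points are libraries in the order 1 to 3, and bars show the mean ± SD (n = 3), cut off at 0 for Piezo1 and Trpv4. The overloaded points of Cav1 (364 to 433 CPM) all lie above the sham points (143 to 160 CPM), those of Piezo2 do so too, and those of Cav2, Cavin2, Cavin3 and Ehd2 overlap with sham.

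Cav1, which encodes the main structural caveolin of non-muscle cells (ENSMUSG00000007655), stood at 160, 153 and 143 CPM in sham libraries 1 to 3 and at 391, 364 and 433 CPM in overloaded libraries 1 to 3. Every overloaded library was above every sham library, and the gap was larger than the spread inside either group. The means were 152 ± 8.94 and 396 ± 34.7 CPM (SD, n = 3), a 2.60-fold rise and a log2 fold change of 1.38 (standard error, SE, 0.21, adjusted p by edgeR = 8.05e-06). The 95% interval of the log2 fold change was 0.95 to 1.81. That log2 fold change exceeded those of 94.9% of the genes tested. The call held under all 16 alternatives, with a log2 fold change between 1.31 and 1.46.

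Cav2, the partner that assembles with caveolin-1 (ENSMUSG00000000058), had few counts: 12, 2 and 8 in sham and 17, 13 and 11 in overloaded libraries. In CPM these were 17.2, 4.15 and 10.8 in sham and 16.4, 16.3 and 12.7 in overloaded, so the groups overlapped and sham library 2 was low. The log2 fold change was 0.43 (SE 0.51, adjusted p by edgeR = 0.571), with a 95% interval from -0.61 to 1.47. That interval holds the estimate for Cav1, so at this depth the data do not tell whether the neighbours differ in response.

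Cavin1, encoded on chromosome 11 (100956733 to 100970887), forms the coat with the caveolins. It stood at 646, 689 and 686 CPM in the sham and at 487, 618 and 497 CPM in overloaded libraries. The groups did not overlap, with overloaded lower, but the gene was not called: the log2 fold change was -0.34 (SE 0.19, adjusted p by edgeR = 0.205, 95% interval -0.73 to 0.06). A rise of the size seen for Cav1 lies outside that interval.

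Cavin3, a cavin that also binds protein kinase C delta (chromosome 7, 105480083 to 105482300), stood at 613, 380 and 439 CPM in the sham and at 522, 538 and 673 CPM in overloaded libraries. Sham library 1 was above overloaded libraries 1 and 2, so the groups overlapped. The log2 fold change was 0.27 (SE 0.21, adjusted p by edgeR = 0.354, 95% interval -0.15 to 0.70). An exon of Cavin3 overlaps Gm45667 on the other strand, and that gene had 0 counts. Cavin2, a cavin that helps to curve the membrane (chromosome 1, 51289126 to 51302960), was scarcer, at 44.4, 27.0 and 20.2 CPM in the sham and 27.9, 23.8 and 9.25 CPM in overloaded libraries. Overloaded library 3 was low with 8 counts, and the groups overlapped. The log2 fold change was -0.58 (SE 0.41, adjusted p by edgeR = 0.318, 95% interval -1.42 to 0.27).

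Ehd2, the ATPase of the caveolar neck (chromosome 7, 15946958 to 15967567), stood at 68.7, 83.0 and 53.8 CPM in the sham and at 66.4, 55.2 and 45.1 CPM in overloaded libraries. The groups overlapped, and the log2 fold change was -0.28 (SE 0.28, adjusted p by edgeR = 0.491, 95% interval -0.85 to 0.29). Of the 6 caveola genes, Cav1 was thus the only one called, and the intervals of Cavin1, Cavin2, Cavin3 and Ehd2 all end below the lower bound of 0.95 for Cav1. Non-overlap of intervals is a description here, since the genes share their libraries.

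**Figure D2:**
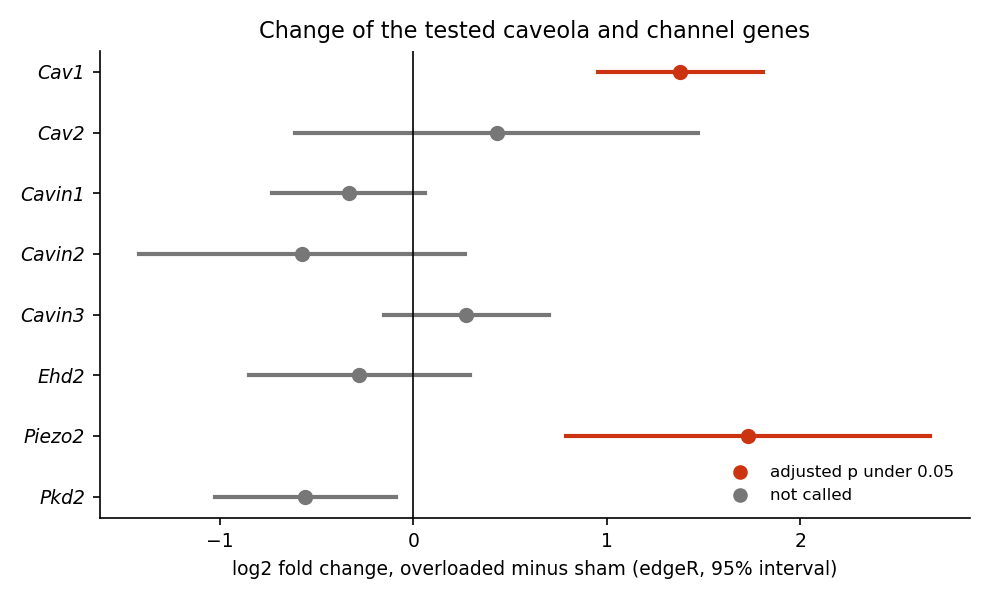
Log2 fold change (x axis, overloaded minus sham) of the 8 tested caveola and channel genes from edgeR, with 95% intervals as lines. Cav1 at 1.38 and Piezo2 at 1.73 are called at an adjusted p under 0.05, and the other 6 are not, with the interval of Pkd2 (-1.03 to -0.09) lying below 0 before adjustment for multiple tests.

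The balance of coat transcripts was compared within each library, where no scaling between libraries is needed. The size of such a ratio reflects counts, not molecules per unit length, and the reading is of its difference between groups. Cavin2 and Cav2 had libraries with fewer than 10 counts and were left out, which left 3 ratios. Cavin1 counts were 4.03, 4.49 and 4.81 times those of Cav1 in sham and 1.24, 1.70 and 1.15 times in overloaded libraries. The log2 ratio went from 2.15 ± 0.13 to 0.43 ± 0.30 (SD, n = 3), a difference of -1.72. Every overloaded library was below every sham library, and the exact two-sided permutation p was 0.1 (adjusted over the 3 ratios, also 0.1), the smallest that 3 against 3 can give.

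The ratio of Cavin3 to Cav1 was 3.82, 2.47 and 3.08 in sham and 1.33, 1.48 and 1.56 in overloaded libraries. Its log2 value differed by -1.08 between the group means, with no overlap (exact permutation p = 0.1, adjusted 0.1). The ratio of Ehd2 to Cav1 was 0.429, 0.541 and 0.377 in sham and 0.170, 0.152 and 0.104 in overloaded libraries, a log2 difference of -1.68 with no overlap (exact permutation p = 0.1, adjusted 0.1). All 3 ratios were lower with overload in 3 of 3 libraries, but they share the Cav1 counts, so they are not separate lines of evidence. The log2 fold change of Cav1 exceeded those of 94.9% of the genes tested. A fall relative to Cav1 is therefore not particular to these 3 genes and largely restates the rise of Cav1. No ratio could pass a threshold of 0.05 in this design.

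**Figure D3:**
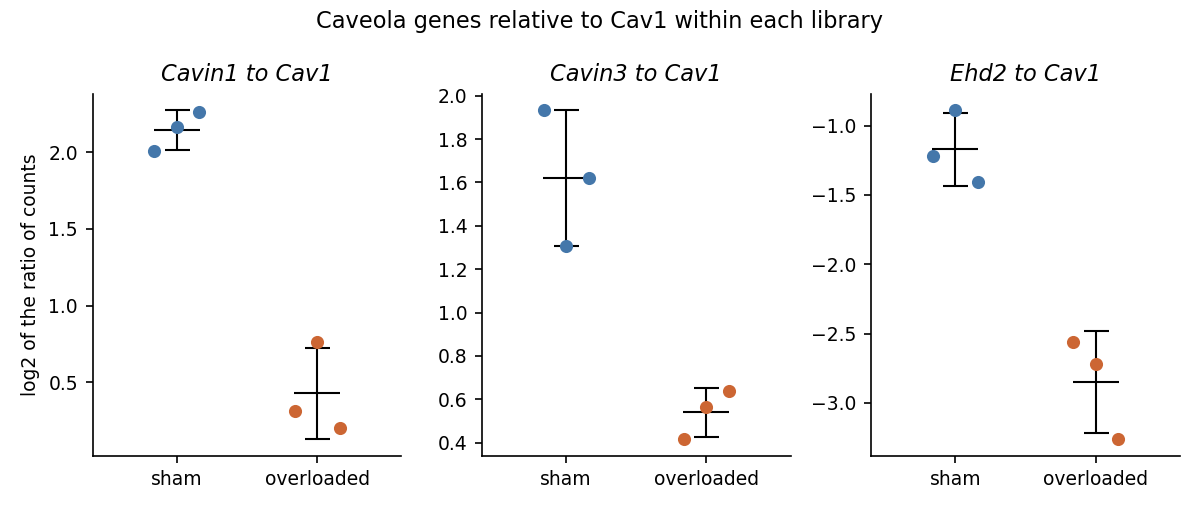
Log2 of the ratio of Cavin1, Cavin3 and Ehd2 counts to Cav1 counts (y axis, with its own range for each gene, not from 0) in each of 3 sham and 3 overloaded libraries. Points are libraries and bars the mean ± SD. For Cavin1 the sham libraries lie at 2.01 to 2.27 and the overloaded libraries at 0.20 to 0.77, and the groups are apart for Cavin3 and Ehd2 as well.

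Among the channels, Piezo2, the PIEZO channel best known from touch and proprioceptive neurons (ENSMUSG00000041482, chromosome 18, 63010213 to 63387183), had 5, 4 and 7 counts in the sham and 38, 15 and 24 in overloaded libraries. In CPM these were 7.16, 8.30 and 9.42 against 36.6, 18.8 and 27.8, with no overlap and overloaded library 2 the lowest of its group. The means were 8.29 ± 1.13 and 27.7 ± 8.87 CPM (SD, n = 3), a log2 fold change of 1.73 (SE 0.46, adjusted p by edgeR = 0.00471, 95% interval 0.79 to 2.67). That test depends on a count filter that Piezo2 passed through its overloaded libraries alone. In the fit without the filter the log2 fold change was 1.81 (adjusted p by edgeR = 0.00614). The estimates of the other tested members moved up in that fit too, that of Cav1 from 1.38 to 1.46, so the larger value is not particular to Piezo2. By totals, 16 sham counts stood against 77 overloaded ones, a ratio of 3.43 with an exact 95% counting interval of 1.98 to 6.29. That interval covers counting error only and not the spread between libraries. Without overloaded replicate 1 the adjusted p was 0.0476. With the share of olfactory and vomeronasal receptor reads as a covariate, the log2 fold change was 1.22 with an SE of 0.65, and the call was lost (adjusted p by edgeR = 0.227). That share was mostly higher in sham than in overloaded libraries, so the fit cannot fully tell it apart from the group.

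Piezo1, the PIEZO channel of many non-neuronal cells (ENSMUSG00000014444, chromosome 8, 122481698 to 122551329), had 1, 0 and 0 counts in the sham and 17, 3 and 0 in overloaded libraries. Overloaded library 1 held 17 of the 20 overloaded counts, and overloaded library 3, like sham libraries 2 and 3, held 0. The ratio of totals was 14.2 with an exact 95% counting interval of 2.28 to 590.3, which covers counting error only and not the spread between libraries. Piezo1 did not pass the count filter, and in the edgeR fit without it, over 28251 genes, it was not called (adjusted p = 0.0935). An exon of Piezo1 overlaps Ctu2 on the other strand, a gene with 31 counts in all. Whether counting used strand is not stated in the sources used here, so reads of the overlap cannot be assigned to one of them.

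Trpv4 (ENSMUSG00000014158, chromosome 5, 114622152 to 114658421) had 1 count in sham library 1 and 0 in each of the other 5 libraries. A floor of 3 counts over a group stood at 1.56 CPM in the sham and 1.11 CPM in overloaded libraries, and Trpv4 lay below it in both, so no fold is given. Expression under that floor was not detectable at this depth.

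Pkd2 (ENSMUSG00000034462, chromosome 5, 104459450 to 104505819) stood at 179, 139 and 196 CPM in the sham and at 136, 96.6 and 118 CPM in overloaded libraries. Every overloaded library was below every sham library. The log2 fold change was -0.56 (SE 0.23), and the gene was not called (adjusted p by edgeR = 0.0663, unadjusted p = 0.0212). It was called lower when libraries were scaled by their totals alone (adjusted p by edgeR = 0.0391) and at a count minimum of 30 (0.0492), and over the 16 alternatives the adjusted p ranged from 0.0391 to 0.349. With the receptor reads as a covariate the log2 fold change was -0.91 (adjusted p by edgeR = 0.0572). Its ciliary partner Pkd1 could not be tested, with 7 counts over the sham and 5 over the overloaded libraries.

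Other cell types of muscle also express these genes. Endothelial cells and adipocytes are rich in Cav1. A list of 12 endothelial markers, all detected, summed to 153 to 258 CPM in the sham and 79.8 to 147 CPM in overloaded libraries. Tek carried that difference, with 233 counts over the sham and 74 over the overloaded libraries, and without it the sums overlapped, at 47.7 to 130 and 54.4 to 123 CPM. Eng had 55 and 131 counts. Pecam1 had 13 counts over the sham and 10 over the overloaded libraries. Of 8 adipocyte markers 6 were detected, with Cfd and Retn at 0 in every library, and they summed to 6.22 to 14.3 CPM in the sham and 2.31 to 8.66 CPM in overloaded libraries.

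Some marker sums moved in the same direction as Cav1 and Piezo2. All 11 pericyte and smooth muscle markers were detected, with sums of 178 to 242 CPM in the sham and 391 to 606 CPM in overloaded libraries. Without Acta2, which myofibroblasts also express, they summed to 166 to 232 and 120 to 199 CPM, so the higher sum was carried by Acta2. The 6 tenocyte markers, all detected, summed to 125 to 162 and 3375 to 4346 CPM, and without Thbs4 to 40.4 to 55.8 and 42.3 to 91.4 CPM. Of 7 Schwann cell markers 5 were detected, with the defining gene Sox10 at 0 in every library. They summed to 30.9 to 47.7 CPM in the sham and 70.2 to 85.6 CPM in overloaded libraries, and without Ncam1 to 1.35 to 14.5 and 0 to 5.77 CPM. The part of Acta2-, Thbs4- or Ncam1-expressing cells of other types in the results for Cav1 and Piezo2 was not tested.

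Markers of 3 further cell types were also summed. Of 8 muscle stem cell markers 7 were detected, with Myod1 at 0. They summed to 16.1 to 33.2 CPM in the sham and 23.1 to 52.9 CPM in overloaded libraries. Msc held most of their counts, with 35 over the sham and 89 over the overloaded libraries. Of 10 myofibre markers 9 were detected, with Tnnc2 at 0, at 64.4 to 131 and 39.3 to 61.4 CPM. Most of their counts were of Tnnt3 (64 and 65) and Ttn (82 and 50). Of 10 leukocyte markers 7 were detected, with Adgre1, Lyz2 and Tyrobp at 0, at 17.2 to 27.0 and 1.92 to 20.1 CPM.

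A wider list of 16 genes that bind, pinch off or resemble caveolae had 11 members with enough counts to test, of which 2 rose, 0 fell and 9 were not called, where 15% of all genes tested were called higher and 14.3% lower. Among those that rose was Flna, which encodes filamin A, an actin crosslinker that binds caveolin-1. It stood at 68.7, 97.5 and 104 CPM in the sham and at 170, 213 and 211 CPM in overloaded libraries, a log2 fold change of 1.14 (SE 0.24, adjusted p by edgeR = 0.000425). The groups did not overlap, and the call held under all 16 alternatives. The median log2 fold change of the 11 was -0.19, against -0.02 for all genes tested. The muscle caveolin Cav3 had 0 counts in every library, and the muscle cavin Cavin4 had 3 counts in the sham and 3 in overloaded libraries.

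Of 21 other channels described as mechanosensitive, 6 could be tested, of which 0 rose, 1 fell and 5 were not called (29.3% of all genes tested were called, 14.3% lower), with a median log2 fold change of -0.47. The one that fell was Trpm7, a channel fused to a kinase. It stood at 91.6, 108 and 151 CPM in the sham and at 85.6, 71.5 and 63.6 CPM in overloaded libraries, with no overlap, a log2 fold change of -0.67 (SE 0.25, adjusted p by edgeR = 0.0428). That call was lost in 11 of 16 alternatives, whose adjusted p ranged from 0.0252 to 0.341. Among them were the fits without sham replicate 2 (0.0721), sham replicate 3 (0.341), overloaded replicate 2 (0.0985) and overloaded replicate 3 (0.168). In the fit without sham replicate 3 the log2 fold change was -0.41. Of the remaining 15 channels, Trpv1, Tmc1, Tmc2 and Asic3 had 0 counts in every library.

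Of 8 genes for proteins that bind or modulate PIEZO or TRP channels, 3 could be tested, of which 1 rose, 0 fell and 2 were not called, near the 29.3% called among all genes tested. Mdfic, described as an auxiliary subunit of PIEZO channels, rose from 100, 97.5 and 99.6 CPM in sham to 158, 174 and 209 CPM in overloaded libraries, a log2 fold change of 0.86 (SE 0.23, adjusted p by edgeR = 0.00446). The sham libraries lay close together and the groups did not overlap. With the receptor reads as a covariate the log2 fold change of Mdfic was 0.80 with a larger SE of 0.33, and the call was lost (adjusted p by edgeR = 0.104), and over the 16 alternatives the adjusted p ranged from 0.00375 to 0.104. The calcium pump gene Atp2a2, whose product binds PIEZO1, was not called (log2 fold change 0.39, adjusted p by edgeR = 0.178). An exon of Atp2a2 overlaps Gm43361 on the other strand, a gene with 106 counts in all. The median log2 fold change of the 3 was 0.69.

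Calcium that enters through such channels acts on calmodulin, calcineurin and the NFAT transcription factors. Of 24 genes for these steps and for store-operated calcium entry, 21 could be tested, of which 3 rose, 2 fell and 16 were not called, with a median log2 fold change of 0.11. That share of called genes is no higher than the 29.3% over all genes tested and is not a result about the list, and the called genes are given as single genes. Rcan1, a calcineurin regulator that NFAT itself induces, rose from 68.7, 51.8 and 37.7 CPM in sham to 128, 94.1 and 133 CPM in overloaded libraries, a log2 fold change of 1.17 (SE 0.27, adjusted p by edgeR = 0.00118). Nfatc1, an NFAT factor, rose from 77.3, 99.6 and 112 CPM to 191, 223 and 171 CPM, a log2 fold change of 1.02 (SE 0.23, adjusted p by edgeR = 0.00118). For both genes the groups did not overlap. Calm3, one of the calmodulin genes, rose from 41.5, 37.3 and 30.9 CPM to 62.5, 77.7 and 77.5 CPM (log2 fold change 0.98, SE 0.29, adjusted p by edgeR = 0.0103), while Calm2, whose product is the same protein, was not called (adjusted p by edgeR = 0.837). Calm3 lost its call without sham replicate 3 (adjusted p by edgeR = 0.0553) and with the receptor reads as a covariate (0.0594), and Rcan1 with that covariate (0.0694). In the fit with the covariate the log2 fold changes were 1.17 for Calm3 and 1.12 for Rcan1, with larger SEs of 0.41 for each. Over the 16 alternatives the adjusted p had its lowest value at 0.00887 for Calm3 and at 0.000299 for Rcan1.

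The 2 calcium genes that fell were Stim1, the calcium sensor of the endoplasmic reticulum, and Nfatc4, another NFAT factor. Stim1 went from 50.1, 68.4 and 101 CPM in sham to 42.3, 38.9 and 35.9 CPM in overloaded libraries, a log2 fold change of -0.91 (SE 0.30, adjusted p by edgeR = 0.0211). Sham library 3 was high, and without sham replicate 3 the log2 fold change was -0.56 and the call was lost (adjusted p by edgeR = 0.258). It was lost as well without overloaded replicate 3 (0.0761) and without the count filter (0.0858), and was as low as 0.0114 over the 16 alternatives. Nfatc4 had 16, 9 and 12 counts in the sham and 8, 1 and 10 in overloaded libraries, a log2 fold change of -1.44 (SE 0.55, adjusted p by edgeR = 0.0466). Nfatc4 passed the count filter through its sham libraries alone, so its inclusion among the tested genes is tied to its being high there. Its call was lost in 9 of the 13 alternatives that tested it (adjusted p from 0.0383 to 0.199), among them the fits without sham replicate 1 (0.184), 2 (0.102) or 3 (0.0918) and without overloaded replicate 1 (0.115) or 2 (0.199), and without overloaded replicate 2 the log2 fold change was -0.98.

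**Figure D4:**
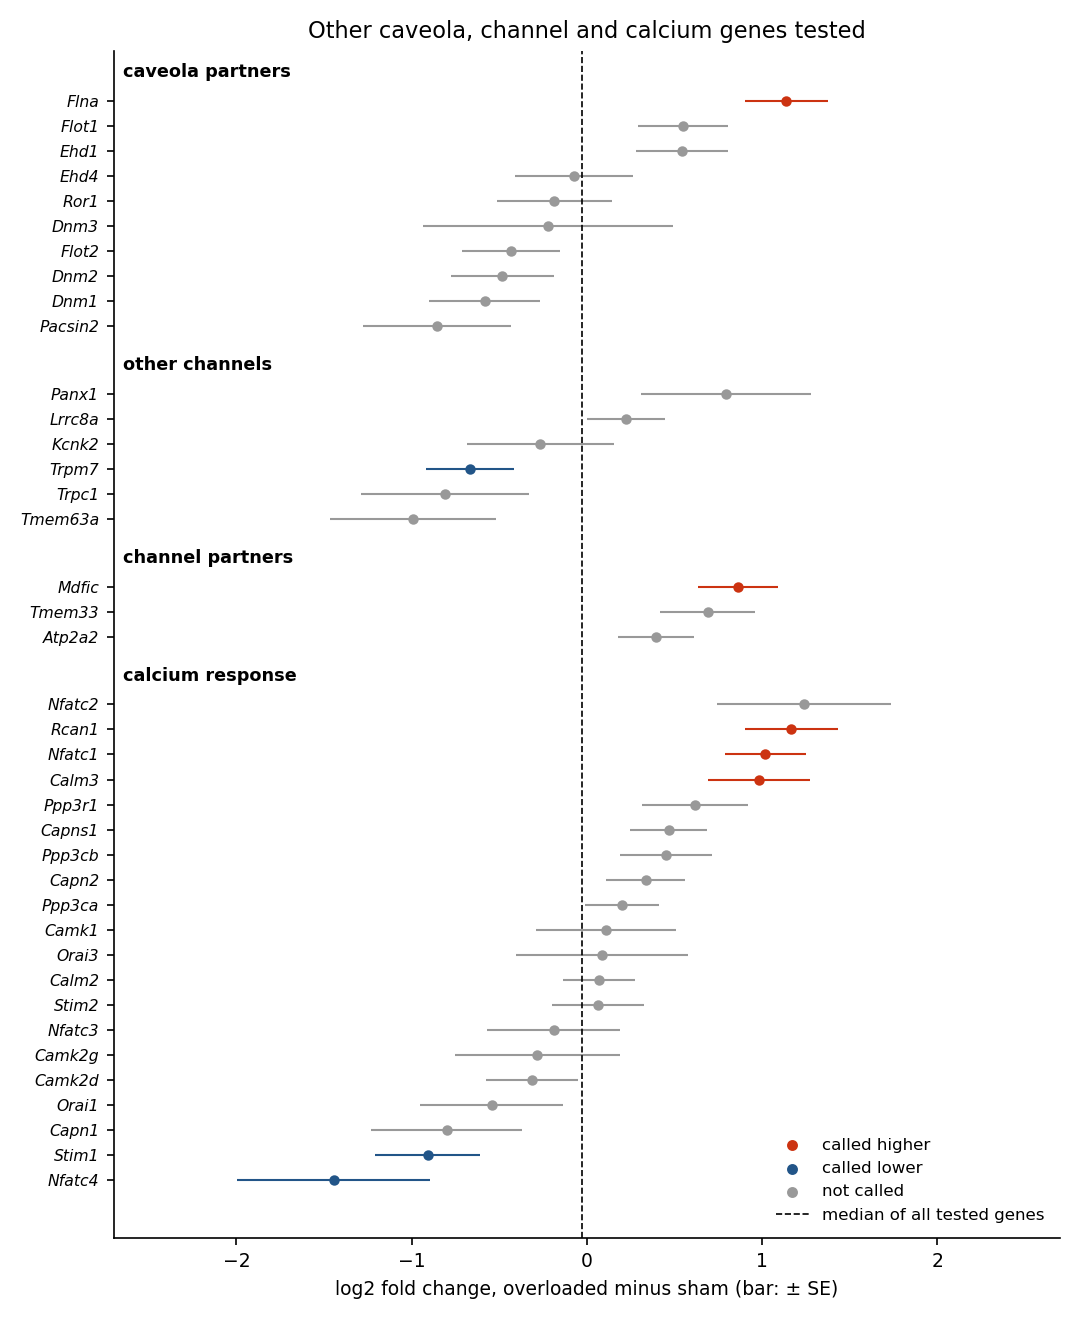
Log2 fold change (x axis, overloaded minus sham; bars are ± SE from edgeR) of the tested genes of 4 lists that are reported here: 10 caveola partners, 6 other channels, 3 channel partners and 20 calcium genes. Genes called higher are Flna, Mdfic, Rcan1, Nfatc1 and Calm3, genes called lower are Trpm7, Stim1 and Nfatc4, and the dashed line marks the median of all tested genes at -0.02.

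For the caveola gene and the channel gene with the most counts, the genes whose profile over the 6 libraries lay nearest were sought among 5662 tested genes whose mean level reached 20 CPM. Nearness was the Euclidean distance between centred log2(CPM + 1) values. That distance includes the difference between groups, so a near gene shares the member's direction by the way it was chosen. The changes of such genes are not separate results. Among the 5 nearest to Cavin1 were Klc1, Fmr1, Ctif and Wdr37, at distances of 0.232 to 0.239, and each of these 4 was lower in overloaded libraries without being called. Nearest to Pkd2 were Inpp5f, Spag9, Hdgfl3, Lamc1 and Cnot4, at 0.184 to 0.237. Of those, Spag9 (log2 fold change -0.61, adjusted p by edgeR = 0.0314) and Lamc1 (-0.58, adjusted p by edgeR = 0.0266) were called lower. Both lost the call without the count filter and in the fits without sham replicate 1, without sham replicate 3, without overloaded replicate 2 and without overloaded replicate 3, where adjusted p was 0.0743, 0.181, 0.162 and 0.0822 for Spag9 and 0.0790, 0.179, 0.0819 and 0.0904 for Lamc1.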

How the data were processed

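Messenger RNA of sorted FAPs was measured in 6 libraries, each of 1000 cells, built by a CEL-Seq2 type of protocol that tags transcripts near their 3′ end, per the labels' protocols. The authors deposited raw whole-number counts per gene for 54100 Ensembl genes. Trim Galore 0.6.6, HISAT2 2.2.1, featureCounts 2.0.1, DESeq2 1.28.1 and the GRCm38 build are named in the submitters' processing notes. The annotation release, strand setting, treatment of multi-mapping reads and use of molecular identifiers were not given in the sources used here, so counting intervals and floors cover counting error only. Gene positions and exon overlaps came from GENCODE M21 on GRCm38, which held all 54100 identifiers, and promoter windows from RefSeq on GRCm38.p6.

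The deposited counts of both groups entered 1 fit of edgeR 4.0.16 under R 4.3.3: filterByExpr (minimum count 10, minimum total 15), TMM scaling, robust quasi-likelihood F test, Benjamini-Hochberg adjustment over 7207 genes. The SE is the log2 fold change divided by the square root of F, and intervals are at 95%. The biological coefficient of variation was 21.2%. Ratios to Cav1 were tested by exact permutation of the libraries (two-sided). Genes left out of a marker sum were chosen after their values were seen. Some genes of the lists are counted but not reported here by name. The fit was tested on simulated data. No library was a copy of another (chi-square over its degrees of freedom, 3.75 to 6.61 between libraries of a group). The members, gene lists and marker lists were chosen with earlier results of these data known. Named genes were the 10 members, up to 4 called genes for each direction of each list by adjusted p, and the 5 genes nearest in profile to the caveola and the channel member with most counts. Alternatives were RLE scaling, library size only, no count filter, a minimum count of 30, DESeq2 1.42.0, limma-voom (limma 3.58.1), the replicate number as a block, thinning to 500402 counts with and without the block, the receptor read share as a covariate, and leaving out each library.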

Additional observations from a re-analysis of the deposited data

How the results depend on the processing

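The rise of Cav1 kept its direction and its call under all 16 alternatives (log2 fold change 1.31 to 1.46, and 1.33 to 1.46 when 1 library was left out). Piezo2 kept both in 14 of 15 fits (1.50 to 1.96 when 1 library was left out). The call was lost with the receptor read share as a covariate (log2 fold change 1.22). Piezo2 could not be tested at a minimum count of 30. All of its fits but that without a filter used a count filter. Piezo2 passed that filter in the main fit through its overloaded libraries alone. Cav2, Cavin1, Cavin2, Cavin3 and Ehd2 stayed uncalled wherever they were tested, and their log2 fold changes kept their sign. With the receptor read share as a covariate, however, that of Ehd2 was only -0.0044 and that of Cavin2 -0.12. Pkd2 was called lower with library size only (log2 fold change -0.63, so 1 member lower) and at a minimum count of 30 (-0.57, so 1 member higher and 1 lower). The median of all tested genes was -0.02, and -0.33 without the count filter. Because the receptor read share partly follows the group, calls lost with it as a covariate cannot be assigned to either. The covariate left 498 genes higher and 449 lower, against 1084 and 1027, and 1 member higher. It left 1 caveola partner, 0 channel partners and 1 calcium gene higher, and 0 other channels and 1 calcium gene lower. Other channels had 0 lower genes without the count filter, with DESeq2, with limma-voom, with thinning and with thinning and the block. Calcium genes had 0 lower without the filter and 1 lower at a minimum count of 30, with DESeq2, with thinning and with thinning and the block. Caveola partners had 1 higher gene with DESeq2, and channel partners had 2 at a minimum count of 30, with limma-voom, with thinning and with thinning and the block. Leaving out 1 library gave 853 to 1073 genes higher and 742 to 960 lower. It gave 3 to 5 calcium genes higher and 0 to 2 lower, 1 to 2 channel partners higher, 1 to 2 caveola partners higher and 0 to 1 lower, and 0 to 2 other channels lower. The 3 ratios to Cav1 kept their sign, at -1.89 to -1.61 for Cavin1, -1.24 to -0.92 for Cavin3 and -1.82 to -1.47 for Ehd2 when 1 library was left out. Why results moved under an alternative was not tested, except that a higher count minimum tests fewer genes (3955) and no filter more (28251).

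Libraries with the same replicate number did not deviate together: the correlations across genes were 0.0161, 0.0143 and 0.0220, all under 0.1, although each library correlated best with its own number. The replicate number as a block gave 1043 genes higher and 993 lower, 2 members higher and 0 lower. With the block, log2 fold changes were 1.38 for Cav1, 0.48 for Cav2, -0.63 for Cavin2, 0.29 for Cavin3, -0.29 for Ehd2, 1.73 for Piezo2 and -0.55 for Pkd2, and no member changed its call. Calcium genes had 1 lower, channel partners 2 higher and other channels 0 lower. For the ratios to Cav1, the same-numbered differences were -1.72 for Cavin1, -1.08 for Cavin3 and -1.68 for Ehd2 (exact sign-flip p = 0.25 each, the smallest possible).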

Other observations

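For the members that were called, the genes of nearest profile were sought after their values had been seen, by the same distance. Genes near a member that rose were chosen for rising as it did, so their rise is not a separate result. Nearest to Cav1 were Lsm4, Nomo1, Crtap, Psmc2 and Psmd14, at distances of 0.201 to 0.229. Lsm4, which encodes a subunit of the U6 snRNA-binding complex, went from a mean of 41.6 CPM in sham to 110.0 CPM in overloaded libraries. Crtap, which encodes a part of the collagen prolyl 3-hydroxylation complex, went from 28.2 to 70.1 CPM, and the proteasome subunit gene Psmd14 from 107 to 282 CPM. Among the 5 nearest to Piezo2, whose own counts are few, were Vcan, Lclat1, Mtpn and Col5a2, at larger distances of 0.410 to 0.546. Vcan, which encodes the proteoglycan versican, went from 462 to 1179 CPM and the fibrillar collagen gene Col5a2 from 744 to 2004 CPM. With the receptor read share as a covariate Nomo1, Crtap and Lclat1 lost their calls (adjusted p by edgeR = 0.0613, 0.0613 and 0.118). Their log2 fold changes went from 1.39 to 1.39, from 1.31 to 1.24 and from 1.50 to 1.17, with larger SEs.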
